A study of Mus musculus with 4 samples.

Results

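The genes described here, Igha, Ighd and Ighe, encode the heavy chain constant regions of the antibody classes IgA, IgD and IgE. They were taken by symbol and are 3 of the 32287 features measured on spatial arrays of mouse popliteal lymph nodes (PLNs), the nodes that drain the hind paw and ankle. All mice were male and on a C57BL/6 background. The WT capture area held 10 PLNs of 5.5-month-old wild-type mice, and the Early area held 6 PLNs of TNF-Tg mice of the same age with early arthritis. The 2 Advanced areas held 6 PLNs each of TNF-Tg mice aged 8.5 to 9 months with advanced arthritis. TNF-Tg mice carry a TNF transgene and develop inflammatory arthritis. WT and Early were thus represented by 1 area each, and every area pooled PLNs of several mice. Age and arthritis stage cannot be told apart between Early and Advanced. Between WT and Advanced, genotype, arthritis and age all differed and cannot be told apart.

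B cells that have not met antigen carry IgM and IgD together on their surface, both made from the same long transcript by alternative splicing. IgA is the antibody of mucosal surfaces, made by plasma cells that have switched from IgM and often joined into dimers by the J chain (Jchain). IgE is the least abundant antibody in serum and arms mast cells and basophils through a high-affinity receptor.

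The 3 genes lie in the heavy chain locus on chromosome 12 (GRCm38, minus strand), which is transcribed from Ighm towards Igha. Ighd (ENSMUSG00000104213) occupies positions 113406604 to 113416324, with a gap of 2233 bases to Ighm. Ighe (ENSMUSG00000087642) lies at 113269260 to 113273248, and Igha (ENSMUSG00000095079) is the last constant gene, at 113254830 to 113260236, with a gap of 9023 bases to Ighe. Each gene has a secreted-type and a membrane-type end in the annotation (GENCODE M21). Since the assay captures RNA by its poly(A) tail, the last 60 coding bases of both ends are shown here, with the stop codon in capitals. The first name of each pair is the secreted-type end and the second the membrane-type end.
Igha-201: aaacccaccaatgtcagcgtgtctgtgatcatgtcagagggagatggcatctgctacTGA
Igha-202: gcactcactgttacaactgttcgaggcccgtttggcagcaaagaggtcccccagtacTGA
Ighd-201: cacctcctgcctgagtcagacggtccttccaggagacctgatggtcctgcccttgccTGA
Ighd-202: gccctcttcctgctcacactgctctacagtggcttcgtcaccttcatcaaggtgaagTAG
Ighe-201: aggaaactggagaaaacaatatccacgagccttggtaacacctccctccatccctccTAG
Ighe-202: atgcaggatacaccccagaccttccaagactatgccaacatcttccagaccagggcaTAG
The 2 Igha ends were at chr12:113258768-113258827 (exon 3) and chr12:113256201-113256260 (exon 4). The secreted-type Ighd end was at chr12:113409578-113409637 (exon 4), and the membrane-type end joined chr12:113407764-113407814 (exon 4) to chr12:113407535-113407543 (exon 5). The Ighe ends were at chr12:113271273-113271332 (exon 4) and chr12:113269260-113269319 (exon 6), and the annotated membrane-type Ighe transcript stops at its stop codon, with 0 bases after it. The deposited counts are per gene, so secreted and membrane transcripts could not be separated. Pairwise, the 6 tails shared between 11 and 23 of 60 aligned bases, and no 31-base word of an Igha or Ighe transcript occurred in the transcripts of another gene (0.113% of the words of Ighd-202 did).

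The areas held between 833 and 2015 spots under tissue and between 1808678 and 5180493 unique molecular identifiers (UMIs, each a captured RNA molecule), with a median of 282 to 414 UMIs per spot. A spot is a small disc of tissue that can hold several cells or parts of cells. Spots at the edge of the tissue were far deeper than interior spots, with a median of 2113 to 5541 UMIs against 140.5 to 250.5. All 18 B-cell markers, 12 T-cell markers and 16 plasma-cell markers examined had a UMI on every area. Pairs of areas shared 464 to 1050 spot barcodes, because every array carries the same barcodes by design.

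Igha was counted as 894 UMIs on the WT area, 963 on Early, 1717 on Advanced 1 and 732 on Advanced 2. Per 10000 UMIs of the area, the level was 4.94 on WT (95% exact Poisson interval 4.62 to 5.28), 1.86 on Early (1.74 to 1.98), 5.08 on Advanced 1 (4.84 to 5.33) and 2.29 on Advanced 2 (2.13 to 2.46). These intervals, and all others here, cover counting error only, not differences between mice. In order of level, Advanced 1 and WT did not differ beyond their intervals, and both lay above Advanced 2 and Early. The Advanced areas averaged 3.69 ± 1.98 UMIs per 10000 (SD, n = 2) and differed 2.22-fold from each other, so the WT level lay inside the Advanced range and the Early level below it. In a sum over an area, fewer cells of a type and less RNA per cell cannot be told apart.

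Ighd was counted as 1280 UMIs on WT, 6003 on Early, 3767 on Advanced 1 and 2487 on Advanced 2. Its level was 7.08 per 10000 UMIs on WT (6.69 to 7.48), 11.6 on Early (11.3 to 11.9), 11.2 on Advanced 1 (10.8 to 11.5) and 7.78 on Advanced 2 (7.47 to 8.09). Early and Advanced 1 overlapped in their intervals at the upper end of the order, Advanced 2 was well below them, and WT was the lowest. The mean of the Advanced areas was 9.46 ± 2.39 (SD, n = 2), and the highest area was 1.64-fold above the lowest, the narrowest range of the 3 genes.

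Ighe was close to the counting floor on most areas, with 4 UMIs on WT, 24 on Early, 13 on Advanced 1 and 125 on Advanced 2. The levels were 0.0221 per 10000 UMIs on WT (0.00603 to 0.0566), 0.0463 on Early (0.0297 to 0.0689), 0.0385 on Advanced 1 (0.0205 to 0.0658) and 0.391 on Advanced 2 (0.325 to 0.466). The first 3 areas overlapped in their intervals, and Advanced 2 stood apart, 10.2-fold above the other Advanced area.

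**Figure D1:**
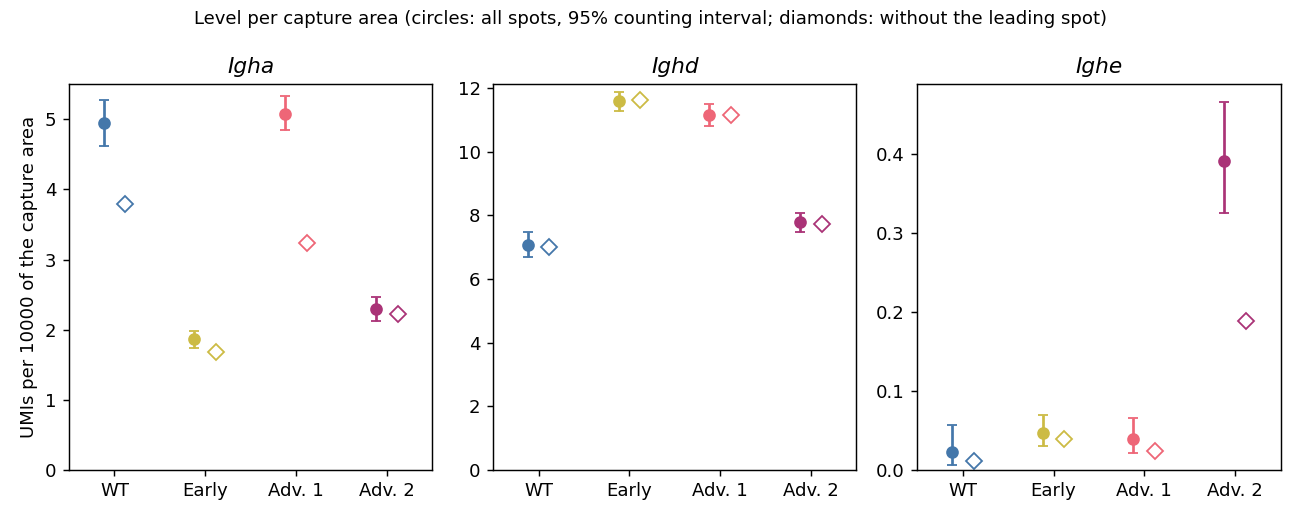
UMIs per 10000 UMIs of each capture area for Igha, Ighd and Ighe (y axis, linear, a separate scale for each gene) on the WT, Early and both Advanced areas (Adv. 1 and Adv. 2). Circles are all spots with 95% exact Poisson intervals and diamonds leave out the spot with the most UMIs of that gene, which lowers Igha on Advanced 1 from 5.08 to 3.24 and Ighe on Advanced 2 from 0.391 to 0.188 and leaves Ighd nearly where it was.

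The share of spots with a UMI gave a different order from the level for Igha. At least 1 Igha UMI was found in 13.8% of WT spots, 14.8% of Early spots, 15.7% of Advanced 1 spots and 18.1% of Advanced 2 spots, so the area with the second lowest level had the largest share. After each spot was thinned to 500 UMIs, with shallower spots left out, the shares were 8.84%, 6.42%, 10.3% and 9.78% in the same order. Ighd had a UMI in 38.4%, 49.5%, 39.9% and 36.4% of spots, and in 32.9%, 46.7%, 43.5% and 29.5% after thinning, which kept Early highest. Ighe had a UMI in 0.36%, 1.01%, 0.397% and 2.53% of spots. Thinning kept 356 spots on WT, 707 on Early, 803 on Advanced 1 and 815 on Advanced 2.

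Relative to the other constant genes, Igha made up 1.16% of all heavy chain UMIs on WT, 0.992% on Early, 1.70% on Advanced 1 and 0.490% on Advanced 2. Ighd UMIs per 100 Ighm UMIs were 9.87 on WT, 15.3 on Early, 14.0 on Advanced 1 and 6.79 on Advanced 2. The ratio of the paired IgD and IgM genes was thus highest on Early and lowest on 1 of the Advanced areas, with the other Advanced area near Early. Igha per 100 Jchain UMIs was 32.3, 24.0, 51.9 and 18.9 in the same order of areas, so the Advanced areas held the highest and the lowest value of this ratio.

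Few spots carried much of the Igha signal. The 10 spots with the most Igha UMIs held 70.8% of the gene's UMIs on WT, 45.2% on Early, 53.7% on Advanced 1 and 18.0% on Advanced 2. The Advanced areas alone lay 2.98-fold apart in this share. For Ighd the 10 leading spots held 18.8%, 7.56%, 8.65% and 10.1%. Ighe was seen in too few spots on WT (3 spots) and Advanced 1 (8 spots) to fill 10, and its 10 leading spots held 79.2% of the UMIs on Early and 72.0% on Advanced 2.

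**Figure D2:**
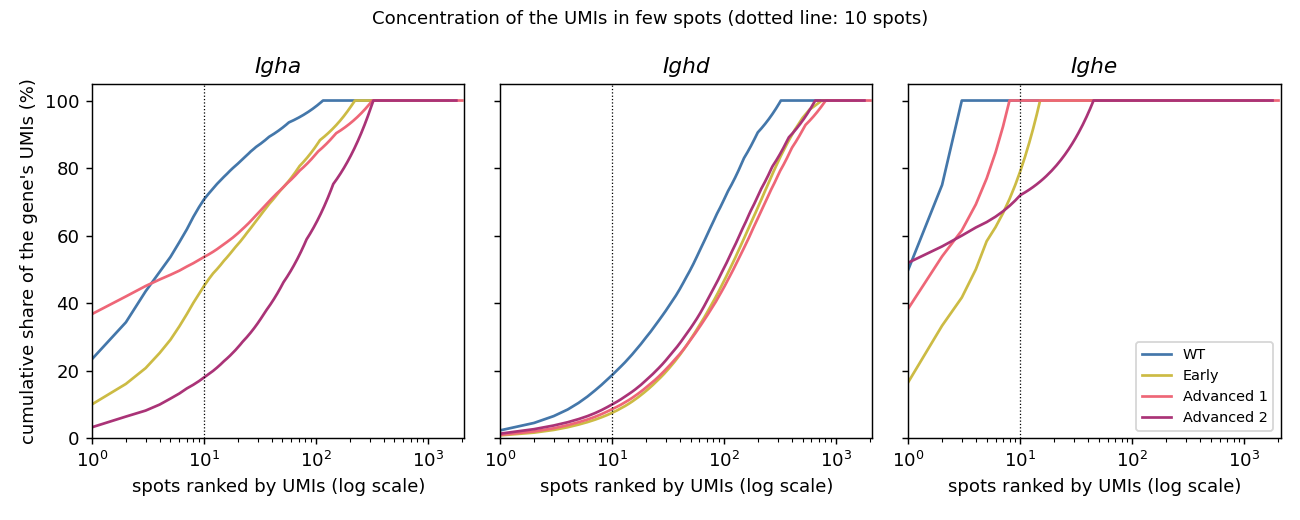
Cumulative share of each gene's UMIs (y axis, percent) over the spots of an area ranked from most to fewest UMIs (x axis, log scale), 1 line per capture area, with a dotted line at 10 spots. At that line Igha reaches between 18.0% and 70.8% and Ighd between 7.56% and 18.8%.

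The leading Igha spot of Advanced 1, at array row 42 and column 96, held 632 Igha UMIs, 36.8% of the gene's total on that area. It was an edge spot of 25124 UMIs, Igha made up 65.6% of its 963 heavy chain UMIs, and none of its neighbours held more than 4 Igha UMIs. The second Igha spot of that area, at row 60 and column 72, held 89 UMIs among mostly Ighg2c (1743), Ighm (1667) and Ighg2b (1387) UMIs. The signal of the first spot was therefore both large and confined to a single array position, whereas the second lay in tissue rich in several classes.

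On WT the leading Igha spot was at row 34 and column 60 with 210 UMIs, 29.7% of its heavy chain UMIs, and the next ones held 97 (row 28, column 44) and 82 UMIs (row 35, column 57). All 10 leading WT spots lay at the tissue edge, which had 30.4% of the WT spots but 79.3% of the WT UMIs. Spots were ranked by raw counts, so deep edge spots lead more readily. Of these 10 spots, 5 touched in a single group. On Early the leading spot, at row 32 and column 80, held 97 UMIs, only 4.74% of its 2048 heavy chain UMIs. A group of 5 touching spots, which included those with 58 (row 23, column 85) and 45 UMIs (row 24, column 86), was also among the leading 10. Of the leading 10, 7 lay at the edge, which had 75.7% of the Early UMIs. On Advanced 2 no leading spots touched, and the highest spot held 24 UMIs. The array position of the first-ranked Igha spot of each area held at most 1 Igha UMI on every other area where that position was under tissue. These positions held from 8 to 10921 UMIs of all genes there. That of the leading Advanced 1 spot held 80 on WT, 145 on Early and 36 on Advanced 2, and at such depths a low count says little.

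Around the leading spots the Igha level fell steeply and stayed above the rest of the area. The leading spots, their neighbours and all remaining spots held 61.0, 9.25 and 1.18 Igha UMIs per 10000 on WT. The same 3 levels were 33.6, 8.42 and 0.794 on Early, 56.0, 5.84 and 2.14 on Advanced 1, and 14.9, 3.05 and 1.87 on Advanced 2. For Ighd the steps were smaller, with 15.2, 12.5 and 6.04 on WT, 13.1, 12.7 and 10.8 on Advanced 1 and 14.0, 10.8 and 7.17 on Advanced 2. On Early the neighbours lay above the leading Ighd spots, with 15.2, 17.1 and 11.2. Since the spots were picked for their counts, these levels are a description.

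**Figure D3:**
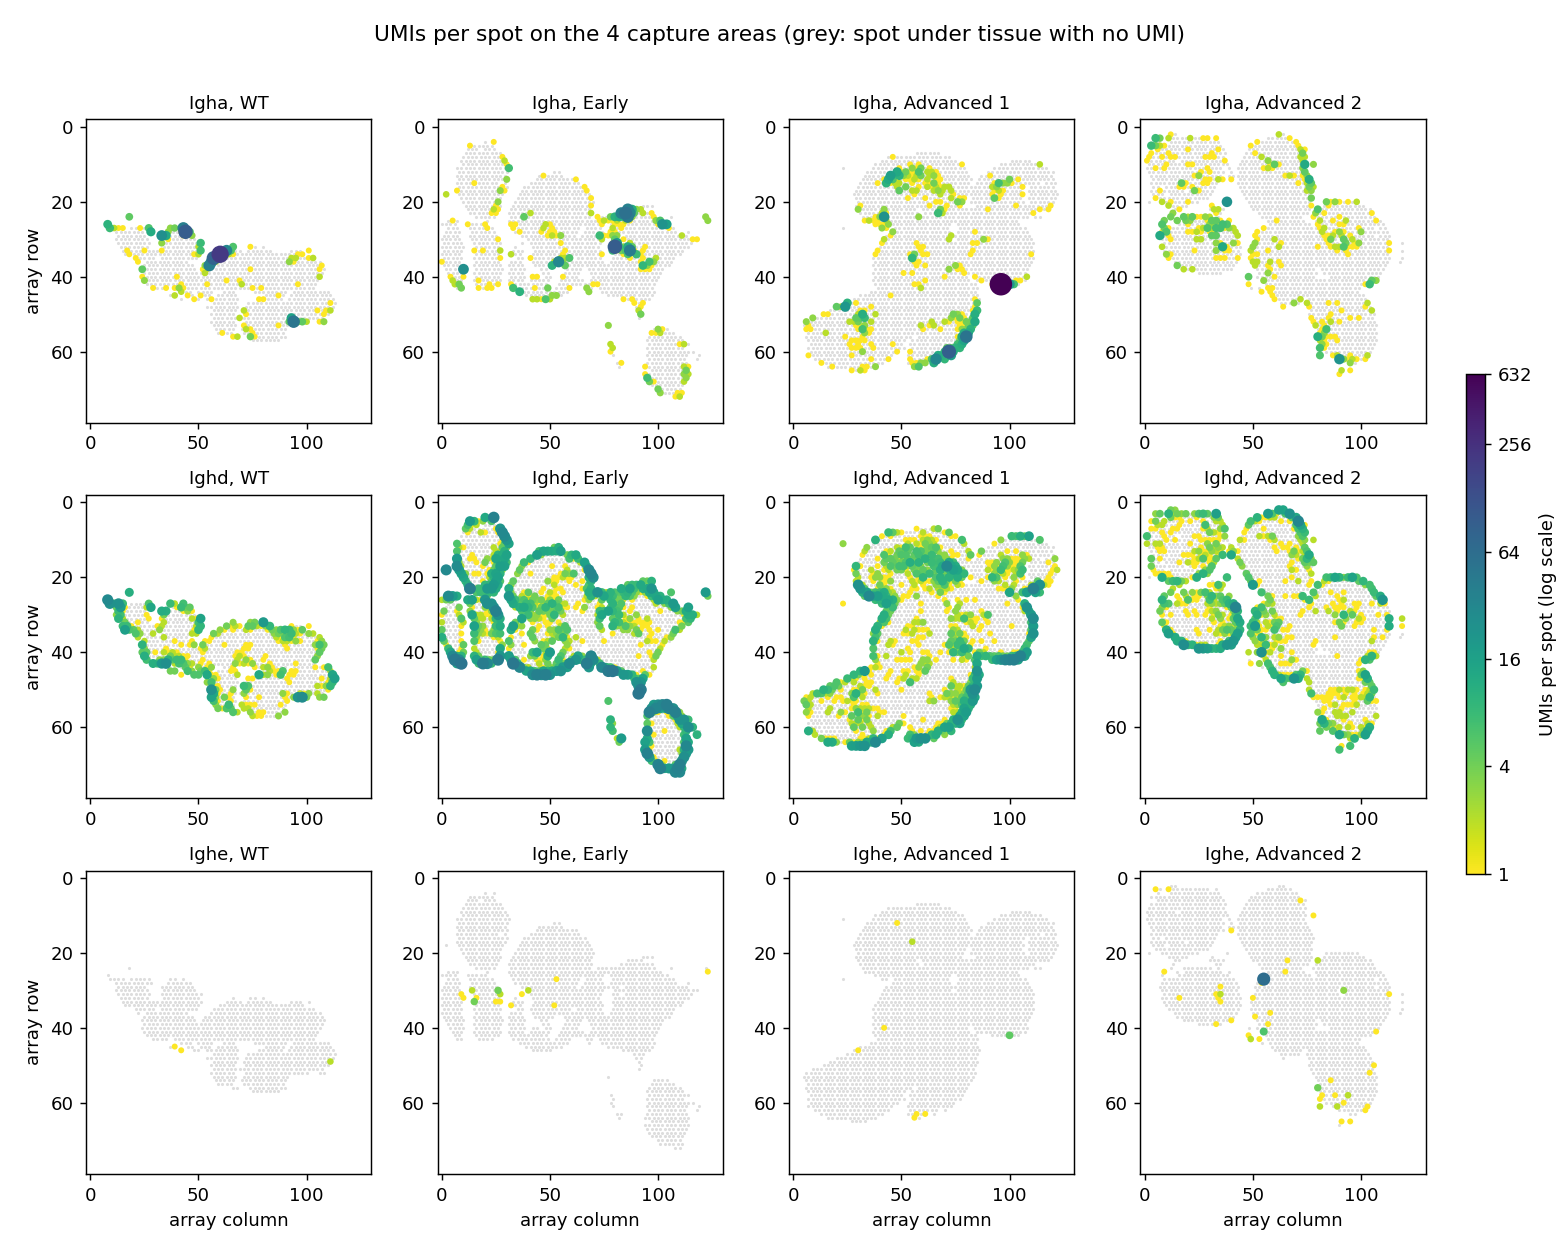
UMIs of Igha (top), Ighd (middle) and Ighe (bottom) in every spot under tissue by array column (x axis) and array row (y axis) on the 4 capture areas, with colour and size on a log scale from 1 to 632 UMIs and grey for spots with none. Igha lies in patches with single strong spots, Ighd in most deep spots and along the tissue edge, where spots hold the most UMIs of all genes, and Ighe in few scattered spots.

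The distribution over pieces of tissue, meaning connected groups of at least 30 spots, also differed between the genes. On Early, Igha was 3.14 per 10000 UMIs in the largest piece, 0.311 in the second, 0.758 in the third and 1.62 in the fourth. Ighd in these pieces was 11.6, 9.56, 15.7 and 13.3, and Jchain was 10.4, 6.71, 1.73 and 2.89. The 15 Ighe UMIs of the second piece were most of the 24 on the area. Igha thus varied over a wider range between pieces of a single area than Ighd did. Pieces were not matched to single nodes or mice.

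The leading Ighd spots were modest and deep. The highest held 30 UMIs on WT (row 26, column 8), 51 on Early (row 43, column 9), 38 on Advanced 1 (row 42, column 102) and 34 on Advanced 2 (row 28, column 42). Edge spots held 47.9% to 79.3% of all UMIs, and between 9 and 10 of the 10 leading spots lay there on every area. The median depth of the leading spots was 14825.5 to 25901.5 UMIs. The leading Ighd spots shared 6 of 10 spots with the leading spots of Cd79a, the B-cell receptor signalling chain, on WT, 5 on Early, 5 on Advanced 1 and 4 on Advanced 2. With the 10 deepest spots of the area they shared 1 on WT, 2 on Early, 5 on Advanced 1 and 3 on Advanced 2. With the leading Igha spots they shared 0 on WT, Early and Advanced 2 and 1 on Advanced 1.

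The leading Ighe spot of Advanced 2, at row 27 and column 55, held 65 of the area's 125 Ighe UMIs. It was an edge spot of 3264 UMIs, Ighe made up 27.5% of its 236 heavy chain UMIs, and its neighbours held 1 Ighe UMI in sum. Without it, Advanced 2 still had 60 Ighe UMIs, 0.188 per 10000, above the interval of each other area. The next spots held 6 (row 41, column 55), 4 (row 56, column 80) and 3 UMIs (row 30, column 92). On Advanced 1 the leading Ighe spot, at row 42 and column 100, held 5 UMIs in a spot dominated by Ighg1, the IgG1 gene, with 1744 UMIs. Its 21 Igha and 35 Ighd UMIs placed all 3 genes in that spot, a combination found in 2 spots on WT, 5 on Early, 6 on Advanced 1 and 24 on Advanced 2.

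**Figure D4:**
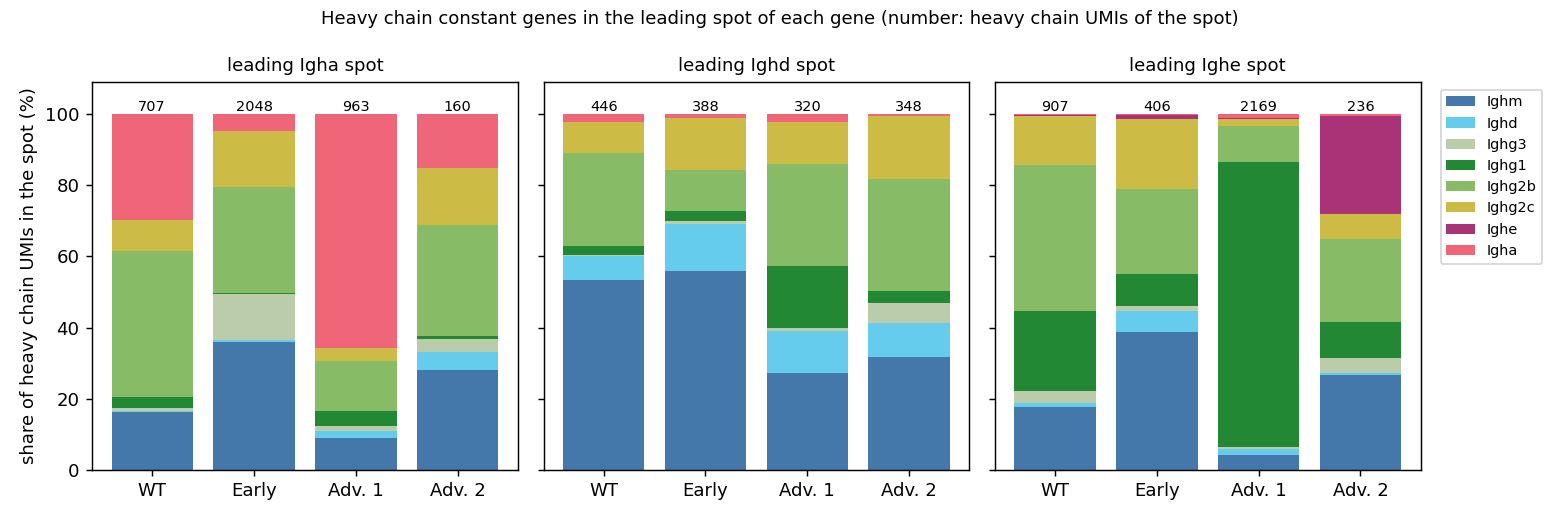
Share of each heavy chain constant gene (y axis, percent of the heavy chain UMIs) in the spot with the most Igha, Ighd or Ighe UMIs on each capture area, with the spot's heavy chain UMI number above each bar. Igha takes 65.6% of its leading spot on Advanced 1 and Ighe 27.5% of its leading spot on Advanced 2, while Ighd takes between 6.73% and 13.1%.

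Whole areas were compared to ask whether the genes differed with arthritis stage. Igha was higher in Advanced than in Early by 0.91 on the log2 scale (SE 0.18, adjusted p = 0.000144) and Ighe by 2.12 (SE 0.42, adjusted p = 0.000144) in a quasi-likelihood test in edgeR, with p-values adjusted by Benjamini and Hochberg's method over 13102 genes. Of these 1.16% were called, 0.496% as higher and 0.664% as lower. Ighd differed by -0.37 (SE 0.15, adjusted p = 0.308). The fit had 1 residual degree of freedom, and its spread came from the trend over all genes rather than from the Advanced pair. DESeq2 gave an adjusted p of 1 for all 3 genes in this comparison.

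Both calls against Early rested on single spots or areas. Without the leading spot of each gene, Igha differed by 0.60 (adjusted p = 0.0662) and Ighe by 1.35 (adjusted p = 0.342) in the same edgeR test. The Igha difference was 0.23 without Advanced 1 and 1.36 without Advanced 2, and that of Ighe was 3.00 and -0.36. Left with 1 area per group, these values had no test.

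Against WT, Ighe was higher in Advanced by 3.14 on the log2 scale (SE 0.62, adjusted p = 6.73e-05 in edgeR, where 2.08% of genes were called, 0.733% as higher and 1.34% as lower). The WT side rested on 4 UMIs, the difference was 3.09 without the leading spots (adjusted p = 0.0311) and 0.66 without Advanced 2, and DESeq2 gave no adjusted p. Igha differed by -0.54 (SE 0.17, adjusted p = 0.0666) and passed the threshold at -0.59 without the leading spots (adjusted p = 0.0357). Ighd differed by 0.31 (SE 0.15, adjusted p = 0.441). In DESeq2 Igha differed by -0.54 with an SE of 0.86 (unadjusted p = 0.524) and was not called. WT and Early, with 1 area each, were not tested against each other. The Early level was 0.376-fold of WT in Igha, 1.64-fold in Ighd and 2.09-fold in Ighe.

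Markers of several cell types moved with these comparisons, and their part in the results was not tested. The summed level of the 18 B-cell markers was 35.6 per 10000 UMIs on WT, 62.7 on Early, 55.0 on Advanced 1 and 49.0 on Advanced 2, the same order of areas as for Ighd. Against WT, 3 of these markers were higher, and against Early 1 was lower (9 at an unadjusted p under 0.05). Of all 13102 genes, edgeR called 1.16% against Early and 2.08% against WT, and 1007 had an unadjusted p under 0.05 against Early. Against Early, 5 of 10 fat genes (12.7 and 17.5 summed UMIs per 10000 on the Advanced areas, 7.35 on Early) and 5 of 7 tested neutrophil genes (10.7 and 5.81 against 4.05) were higher. None of the 16 plasma-cell markers passed the test in edgeR (3 at an unadjusted p under 0.05), and their summed level was 17.5 and 18.5 against 15.4. Against WT, 8 of 10 tested sinus macrophage genes were lower (30.4 and 41.7 against 62.2) and all 5 red-cell genes higher (13.1 and 11.0 against 3.71), and 2 of 16 plasma-cell markers were lower (17.5 and 18.5 against 20.8).

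Among genes of the IgA pathway, covering class switching, homing and transport, 19 of 28 could be tested. Against Early, 0 were higher and 1 was lower in edgeR, where 1.16% of 13102 genes were called. At an unadjusted p under 0.05 there were 5, and 1007 among the 13102 genes. DESeq2 called 7 genes of all kinds. The lower one was Madcam1 (log2 difference -0.89, adjusted p = 0.00467), the endothelial address for gut-homing cells. The authors use Madcam1 as a marker of lymphatic endothelium at the subcapsular floor, and which role its values reflect was not tested. Against WT, Madcam1 was higher (1.72, adjusted p = 1.13e-05) and Jchain lower (-0.59, adjusted p = 0.00265). Madcam1 was 0.144 per 10000 UMIs on WT, 0.901 on Early, 0.571 on Advanced 1 and 0.457 on Advanced 2, so WT was below all TNF-Tg areas. The gene for the epithelial IgA transporter, Pigr, had only 2, 7, 1 and 5 UMIs on WT, Early, Advanced 1 and Advanced 2, and that for the cytokine Il5 had 0 on every area.

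Of 15 tested genes for IgE switching, IgE receptors and mast cells, 0 passed the test against Early in edgeR. At an unadjusted p under 0.05 there was 1, and 1007 among all 13102 genes. Against WT, where 1.34% of all genes were called lower, 4 were lower. These were the mast cell proteases Tpsb2 (-1.18), Cma1 (-0.82) and Mcpt4 (-0.80) and the receptor chain Fcer1g (-0.67), with a median of -0.65 over the list against 0.01 over all genes. Ighe and these genes thus had opposite signs in that comparison. Il4, the cytokine that drives the switch to IgE, had 1, 5, 4 and 8 UMIs on WT, Early, Advanced 1 and Advanced 2, and the alpha chain of the high-affinity receptor, Fcer1a, had 15, 22, 10 and 15, levels too low to order the areas.

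To place the genes in the tissue, spots with at least 500 UMIs were ranked by the summed share of 18 B-cell markers, and the top 20% of each area, 71 to 163 spots, were set against the rest, with the area as a block. The markers exclude all immunoglobulin genes. The Ighd level was 18.0 per 10000 UMIs in B-cell-marker spots against 5.70 in other spots on WT, 21.9 against 10.2 on Early, 19.2 against 10.1 on Advanced 1 and 15.9 against 6.07 on Advanced 2. The marker spots were higher on 4 of 4 areas, with no overlap of intervals, by 1.15 on the log2 scale (SE 0.10, adjusted p = 8.7e-16 in edgeR). In this comparison 26.9% of 11009 genes were called, 12.1% as higher.

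Igha went the other way, with 2.40 against 5.34 UMIs per 10000 on WT, 0.897 against 2.02 on Early, 1.01 against 5.83 on Advanced 1 and 1.04 against 2.56 on Advanced 2. The difference was -1.65 (SE 0.14, adjusted p = 7.75e-17 in edgeR), and 14.8% of genes were called lower. Ighe had 0, 0, 1 and 4 UMIs in marker spots against 4, 24, 11 and 119 elsewhere and did not pass the filter on low counts. Most of the UMIs elsewhere were on Advanced 2, where a single spot held 65. The intervals of marker and other spots overlapped on WT, Early and Advanced 1. Where Ighe could be fitted, it was lower in marker spots, with a log2 difference of -2.67 with no filter (adjusted p = 0.000177 in edgeR). It was -2.43 with the top 30% of spots (adjusted p = 0.000121) and -2.62 without WT (adjusted p = 0.000247). Ighe did not pass the filter without Advanced 2 or without the leading spots, so these values rest mainly on Advanced 2. Ighm was lower in B-cell-marker spots (-0.99), unlike its partner Ighd: the log2 ratio of marker to other spots was higher for Ighd than for Ighm by 2.15 ± 0.36 (SD, n = 4 areas), in 4 of 4 areas (two-sided exact permutation test, p = 0.125, the smallest that 4 areas can give).

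Genes of IgD assembly and signalling went largely with Ighd: 7 of 10 were higher in B-cell-marker spots and 1 lower. Of all 11009 genes, 12.1% were called higher and 14.8% lower. The median was 0.96 over the list against 0.00 over all genes. The spots were chosen for B-cell markers, and a link of these genes to Ighd apart from B-cell content was not tested. Cd79a and Cd79b are both among these genes and among the markers that defined the spots, so their rise was fixed by the choice of spots. Outside the marker list, the signalling genes Btk (1.25) and Blnk (1.24) were higher, and Hnrnpll, a splicing factor of plasma cells, was lower (-1.18, adjusted p = 0.00429 in edgeR). Fcer2a, the low-affinity IgE receptor CD23 and also a spot-defining marker, was 1.62 higher, while the mast cell genes Cma1 (-1.66) and Cpa3 (-1.04) were lower. B-cell-marker spots were also shallower than others on all areas, in the median 1323 against 2775 UMIs on WT but only 1968 against 2030 on Advanced 2. They had lower levels of 9 of 9 tested sinus macrophage genes and 9 of 9 fat genes, where 14.8% of all genes were called lower.

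The same ranking by 16 plasma-cell markers gave spots with more Igha: 14.1 against 2.63 UMIs per 10000 on WT, 6.40 against 1.25 on Early, 8.37 against 4.58 on Advanced 1 and 4.76 against 1.96 on Advanced 2. Igha was higher on 4 of 4 areas by 1.88 (SE 0.16, adjusted p = 2.17e-11 in edgeR), where 2.16% of 10707 genes were called and 1.44% were higher. On Advanced 1 the ratio was the smallest, since the leading Igha spot with its 632 UMIs fell among the other spots. Jchain rose by 2.23 and Ighm by 1.59 in the same spots.

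Ighd was lower in plasma-cell-marker spots on 4 of 4 areas, with 3.48 against 7.88 UMIs per 10000 on WT, 9.44 against 11.9 on Early, 8.33 against 11.8 on Advanced 1 and 5.31 against 8.11 on Advanced 2. The difference was -0.49 (SE 0.11, adjusted p = 0.00854 in edgeR), with 0.719% of genes called lower. It was -0.44 without the area block (adjusted p = 0.721), -0.51 without Advanced 2 (adjusted p = 0.0811) and -0.47 in DESeq2 (adjusted p = 0.0505). Relative to Ighm, Ighd was lower by 2.08 ± 0.40 on the log2 scale (SD, n = 4 areas), in 4 of 4 areas (exact permutation test, two-sided, p = 0.125).

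For Ighe the plasma-cell-marker spots held 0 UMIs against 4 in the other spots on WT, 1 against 23 on Early, 1 against 11 on Advanced 1 and 84 against 39 on Advanced 2. The edgeR difference of 2.38 (SE 0.54, adjusted p = 0.00759) therefore came from 1 of 4 areas and from its leading spot, without which it was 1.02 (adjusted p = 0.50). DESeq2 gave -0.34 (adjusted p = 0.999). The plasma-cell-marker spots also had higher levels of 5 of 7 tested neutrophil genes and lower levels of 4 of 4 red-cell genes. Of 18 B-cell markers 5 were lower there (15 at an unadjusted p under 0.05, median -0.38 over the list). Of all 10707 genes, edgeR called 1.44% higher and 0.719% lower, and 1257 had an unadjusted p under 0.05. The part of the neutrophil, red-cell and B-cell genes in the Igha and Ighd differences was not tested.

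**Figure D5:**
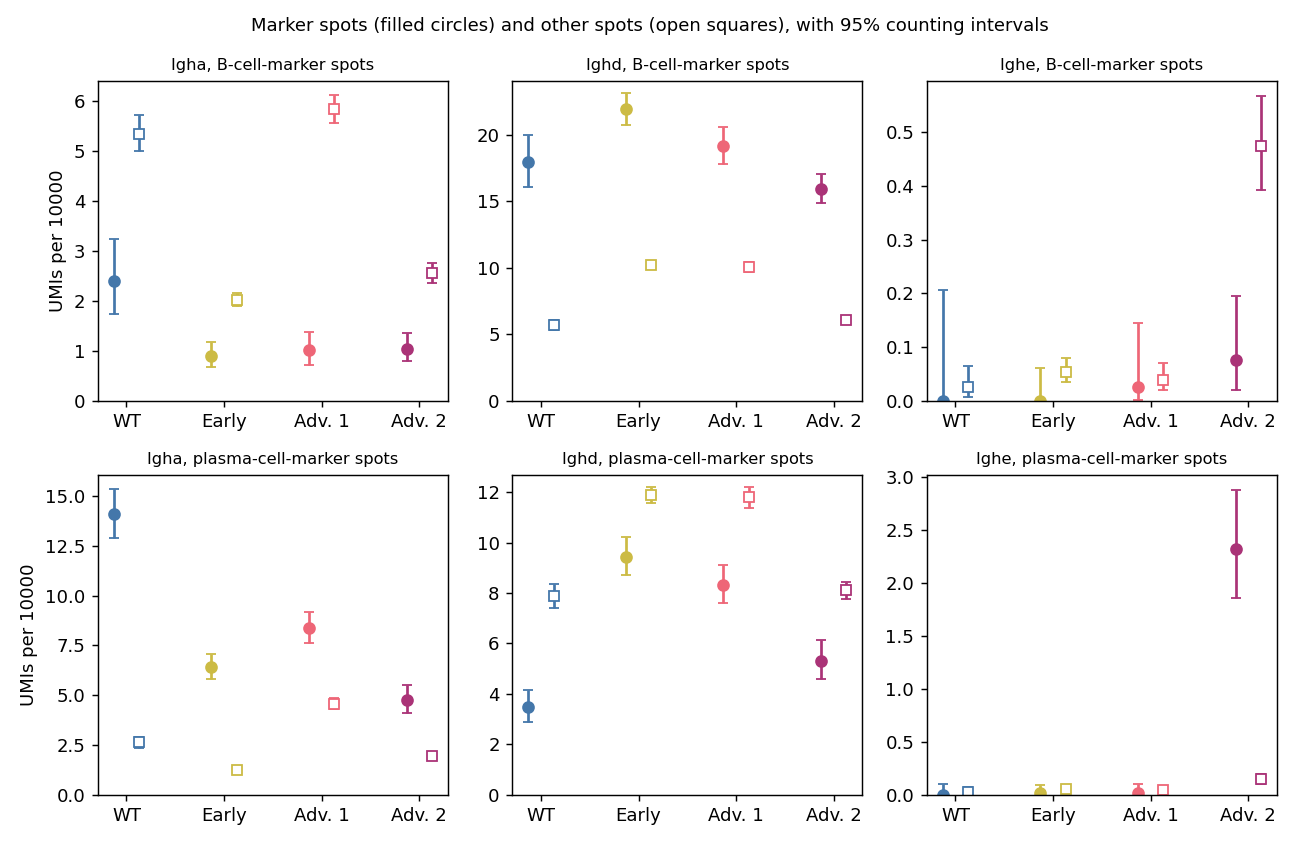
UMIs per 10000 of Igha, Ighd and Ighe (y axes, a scale for each panel) in the 20% of spots richest in B-cell markers (top row, filled circles) or plasma-cell markers (bottom row, filled circles) and in the other spots (open squares), per capture area, with 95% exact Poisson intervals. Ighd is higher and Igha lower in B-cell-marker spots on all 4 areas, the reverse holds in plasma-cell-marker spots, and Ighe stands out only on Advanced 2.

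Edge spots, those with fewer than 6 neighbours under tissue, held 47.9% to 79.3% of all UMIs, so levels rather than counts were compared. Per 10000 UMIs, Igha at the edge and in the interior was 5.82 and 1.58 on WT, 1.71 and 2.34 on Early, 6.70 and 3.60 on Advanced 1 and 2.19 and 2.47 on Advanced 2, higher at the edge on 2 of 4 areas. The difference was 0.54 (SE 0.21, adjusted p = 0.138 in edgeR, with 7.62% of 11675 genes called, 4.14% higher and 3.49% lower) and 0.03 without the leading spots. Ighd was 6.90 and 7.76 on WT, 12.2 and 9.77 on Early, 11.7 and 10.7 on Advanced 1 and 8.74 and 6.03 on Advanced 2, a difference of 0.30 (SE 0.11, adjusted p = 0.121).

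Ighe was higher at the edge on 4 of 4 areas, with 4 edge and 0 interior UMIs on WT, 21 and 3 on Early, 8 and 5 on Advanced 1 and 108 and 17 on Advanced 2. The intervals of the edge and interior levels overlapped on WT, Early and Advanced 1, and on Early the edge held 87.5% of the Ighe UMIs and 75.7% of all UMIs. The difference of 1.62 (SE 0.35, adjusted p = 0.00509 in edgeR) fell to 0.54 without the leading spots (adjusted p = 0.521). Genes of perinodal fat (9 of 9 tested) and red cells (4 of 5) were higher in edge spots as well, and T-cell genes (6 of 12) lower, and their part was not tested.

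Across spots with at least 500 UMIs, the genes with patterns most like Igha, by the mean over 4 areas of the correlation of log2(UMIs per 10000 + 1) among 6303 genes, were Jchain (r = 0.31), Txndc5 (0.24), Inmt (0.21), Dcn (0.21) and Cxcl12 (0.20). Txndc5 encodes an enzyme of protein folding in the secretory pathway, Dcn a proteoglycan of connective tissue and Cxcl12 a chemokine made by stromal cells. Within the immunoglobulin loci Igkc (0.33), Ighm (0.29), Ighg3 (0.28), Ighg2b (0.28) and Ighg2c (0.27) came first. Among those most like Ighd were Cd79a (0.30), Cd74 (0.27), Cd79b (0.27) and H2-Ob (0.25), genes of the B-cell receptor complex and of antigen presentation. Of the other immunoglobulin genes, the lambda constant genes Iglc3 (0.22) and Iglc2 (0.19) were positive, whereas Igha (-0.04) and Ighm (-0.15) were not. Jchain, outside these loci, was also negative (-0.13). These values rest on 356, 707, 803 and 815 spots that share library and depth within an area, and all are weak.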

How the data were processed

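RNA was captured from 1 frozen section per capture area on a Visium slide that held all 4 areas. The authors deposited a table of raw UMI counts per gene and spot under tissue for each area. The submitters' processing notes name Space Ranger 1.1.0, Seurat 4.0.3, R 4.1.1 and the build mm10/GRCm38. Each area is 1 sample, named by its label, and spots were never treated as replicates. The genes and gene lists were chosen with earlier results of these data known.

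Counts were summed over all spots of an area, or over marker, other, edge and interior spots, and divided by the UMIs of the same spots. Sums were tested with edgeR 4.0.16 (filterByExpr, TMM, quasi-likelihood) in R 4.3.3 over all genes past the filter, at an adjusted p under 0.05. The whole-area model had 3 groups and 1 residual degree of freedom, and the spot-class models had the area as a block. The sources used here do not identify the mice of each Advanced area, and no p-value measures the spread between mice. In the whole-area model the spread came from the trend over all genes, not from the Advanced pair of each gene. In the spot-class models areas were the unit, but the spread also drew on the trend over all genes. Their small p-values therefore do not measure the spread between the 4 areas alone. Scripts were tested on simulated data with 200 changed genes. Spots may hold RNA that moved between neighbours, and no correction was made. Depth was 1808678 to 5180493 UMIs per area, so 3 UMIs, the floor, correspond to 0.00579 to 0.0166 per 10000. Intervals are 95% exact Poisson intervals.

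Leading spots were the 10 with the most UMIs of a gene. Named genes were the 3 members, the other heavy chain genes and Jchain, up to 4 called genes of each list with the largest difference, up to 6 of a list by level, and the 5 genes most like Igha and Ighd inside and outside the immunoglobulin loci; Pigr, Il5, Il4 and Fcer1a were added after their values were seen. Of the 32287 feature IDs, 32158 matched GENCODE M21, which gave positions and transcript sequences. Alternatives were DESeq2 1.42.0, its size factors in edgeR, no filter on low counts, other immunoglobulin genes left out, other depth and rank limits, no area block, and each area left out. Leaving out the leading spot of each gene was chosen after seeing the data. Values of some genes that the rule would name are not reported here.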

Additional observations from a re-analysis of the deposited data

Results flagged for a closer look

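The ratio of edge to interior level went opposite ways on areas of different groups for Igha and Ighd, and the differences were not tested, with 1 area for WT and for Early. For Igha it was 3.69 on WT and 0.730 on Early, and the Advanced areas, which are of the same group, also lay on both sides, at 1.86 and 0.887. For Ighd it was 0.889 on WT and 1.25 on Early, and 1.097 on Advanced 1 and 1.45 on Advanced 2 against the same WT value, whose edge and interior intervals overlapped. Leading spots were part of the Igha values, since all 10 leading WT spots lay at the edge. Their part in the difference was not tested.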

How the results depend on the processing

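Over the 14 comparisons of a gene, 142 alternative values were computed, of which 140 kept the direction. Of the 128 with an adjusted p, 111 also kept their side of the threshold. DESeq2 gave 0.90 for Igha and 2.15 for Ighe against Early (adjusted p of 1 for both), -0.47 for Ighd and -0.34 for Ighe in plasma-cell-marker spots, and no adjusted p for Ighe against WT or at the edge. Without the leading spots, Igha was 0.60 against Early and -0.59 against WT, and Ighe was 1.35 against Early, 1.02 in plasma-cell-marker spots and 0.54 at the edge. With other immunoglobulin genes left out, Igha against WT was -0.54 and passed the threshold (adjusted p = 0.0442 in edgeR). DESeq2 also gave -0.54 for Igha against WT and did not call it. Ighe in plasma-cell-marker spots was 0.34 with the top 10% of spots and 1.69 with the top 30%, neither called. Igha at the edge was 0.56 and called with no filter on low counts. The cause of these changes was not tested.

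Leaving out 1 Advanced area gave ranges against Early of 0.23 to 1.36 for Igha, -0.64 to -0.15 for Ighd and -0.36 to 3.00 for Ighe, and against WT of -1.21 to -0.09, 0.04 to 0.53 and 0.66 to 4.02, with no test since no residual degrees of freedom remained. Leaving out each area, Igha ranged from -1.78 to -1.33 and Ighd from 1.05 to 1.25 in B-cell-marker spots. In plasma-cell-marker spots Igha ranged from 1.61 to 2.20, Ighd from -0.56 to -0.36 and Ighe from 2.70 to 3.18. At the edge Igha ranged from 0.21 to 0.86 (called without Early, adjusted p = 0.0396), Ighd from 0.20 to 0.41 (called without WT, adjusted p = 0.00888) and Ighe from 1.60 to 1.78. Ighe could not be fitted at plasma-cell-marker or edge spots without Advanced 2, where it did not pass the filter.

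No paired analysis of whole areas was possible because the WT, Early and Advanced nodes came from different mice. The spot classes had the area as a block, and without this replicate block Ighd in plasma-cell-marker spots was -0.44 (adjusted p = 0.721). Genes called numbered 7 in DESeq2 against 152 for Advanced and Early, 33 against 272 for Advanced and WT, 1667 against 2966 for B-cell-marker spots, 83 against 231 for plasma-cell-marker spots and 419 against 890 for the edge. Without the block they were 39 for plasma-cell-marker spots and 159 for the edge, and 536 at the edge among spots of at least 500 UMIs. Leaving out 1 area, calls ranged from 1920 to 2769 for B-cell-marker spots, from 104 to 341 for plasma-cell-marker spots and from 272 to 1119 for the edge.

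The mean share of spots with a UMI on the Advanced areas was 5.55% for Igha and 21.3% for Ighd when thinned to 250 UMIs, and 18.5%, 57.0% and 1.01% for Igha, Ighd and Ighe when thinned to 1000. The 5 leading Ighd spots held 5.21% and the 20 leading 16.1% of the UMIs there. Of the levels and shares under other settings, 28 stayed within the spread and 26 moved beyond it. The spread was the SD of the Advanced areas, and a counting interval for WT and for Early. Shares in 5 or 20 leading spots, and shares at other thinning depths, differ from the main ones by construction. These counts therefore do not measure how stable the results are.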

Other observations

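Variable-gene reads were too few to say whether leading spots shared a clone. The 10 leading Igha spots of an area held 0, 1, 5 and 0 heavy chain variable UMIs on WT, Early, Advanced 1 and Advanced 2. The leading Igha spot of Advanced 1 held 3 UMIs of Ighv1-81, all that were counted for this gene on that area. The leading Ighe spot there held both UMIs of Ighv9-3.

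Spots with Igha were deeper than spots without it (median 6563.5 against 1753.5 UMIs on WT, among spots of at least 500 UMIs). Ighd had a UMI in 89.2% of spots with Igha and in 67.3% of those without on WT, and in 76.5% and 61.3% on Advanced 2. The correlation of their levels over these spots was -0.04 in the mean of the 4 areas. At least 1 of the 3 genes was counted in 40.9% of spots on WT, 50.4% on Early, 42.3% on Advanced 1 and 41.9% on Advanced 2.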
